A study of Mus musculus with 4 samples.

Results

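Arterial and venous endothelial cells of the mouse lung, the lining cells of vessels larger than capillaries, were picked out cell by cell with a fixed rule on UMIs, the unique molecular identifiers that count captured RNA molecules. A cell belonged when 10 endothelial genes (Cdh5, Cldn5, Tie1, Egfl7, Ramp2, Calcrl, Emcn, Robo4, Sox18 and Cyyr1) held at least 0.4% of its UMIs, 3 surfactant genes below 5% and 4 leukocyte genes below 0.1%. It also had to hold fewer than 8 UMIs of the aerocyte genes Car4, Ednrb, Fibin and Apln and at least 5 UMIs of the vessel genes Vwf, Slc6a2, Vcam1, Gja5, Bmx and Fbln5. The rule found 176 cells among 752 endothelial cells and 25982 cells in all. The remaining endothelial cells were 180 aerocytes, at or over the aerocyte threshold, and 396 cells under both thresholds. The 396 are called the other endothelial cells here. General capillary genes stood higher in them than in the members and the aerocytes, and they also held markers of other lineages.

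The lungs came from mice aged 11 weeks in 4 groups, each captured once as a pool of cells from 5 mice. NW was wild type in normoxia, NK was FUNDC1-KO in normoxia, HSW was wild type after HySu and HSK was FUNDC1-KO after HySu. HySu is a model of pulmonary hypertension that combines hypoxia with 3 weekly doses of SU5416, a blocker of VEGF receptor signalling, and the normoxia mice received the vehicle instead. The labels name neither the strain nor the cells in which the gene was deleted, although the series title speaks of endothelial deficiency. With 1 library per group no test between groups was made. Most ratios between groups below carry an exact 95% interval in parentheses, and ratios of members to the other endothelial cells carry none. The interval covers the counting error of UMIs only, and not the variation between mice, captures or cells. In sums over cells, fewer cells of a kind and less RNA per cell cannot be told apart.

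Endothelium of arteries and veins differs by developmental origin and by flow. Arterial cells depend on Notch signalling, with ligands such as Dll4, targets such as Hey1, and the connexins Gja4 and Gja5, whereas the nuclear receptor Nr2f2 and the receptor Ephb4 mark veins. Both kinds release vasoactive factors, among them endothelin from Edn1 and nitric oxide from Nos3, and store von Willebrand factor, the product of Vwf, for clotting. In pulmonary hypertension the walls of small pulmonary arteries thicken, and mutations of the BMP receptor gene Bmpr2 are the best known heritable cause.

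Fundc1, the targeted gene, whose protein sits on mitochondria and marks them for removal by autophagy, had 4 UMIs in NW and 0 in NK under normoxia, against 13 in HSW and 0 in HSK. At 3 counts, the limit that a count of 0 allows, the knockout members could hold up to 14.5 CPM in NK and 9.97 in HSK (CPM is UMIs per 1000000 UMIs summed over the members of a library), against 19.3 in NW and 28.0 in HSW. There were 29 and 41 members in the normoxia libraries NW and NK, and 62 and 44 in the HySu libraries HSW and HSK. They held 206799, 207478, 464726 and 300894 UMIs in that order, with medians per cell of 6405, 4382, 5898 and 6122. The deposited matrices began at 3775, 3182, 4230 and 4726 UMIs per cell, so depth differs between the groups. Libraries shared between 20 and 70 cell barcodes, and no barcode was shared between members of different libraries.

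Cells of another lineage stood apart among the members. At least 10 UMIs of fibroblast, lymphatic, or smooth muscle and pericyte markers were found in 18 of the 176 members, with 5 and 4 of them in NW and NK and 7 and 2 in HSW and HSK. By kind, 12 cells held fibroblast markers (4, 2, 6 and 0 by library), 4 held lymphatic markers (1, 2, 1 and 0) and 3 held muscle markers (0, 0, 1 and 2), with 1 HSW cell in 2 of these sets. The fibroblast markers reached 262 UMIs in 1 of these cells and at most 8 in any unmixed member. All 158 remaining members are called unmixed. The value in them is given for some of the results below, and where none is given it may also differ. Of the genes that this changes most, those of fibroblasts summed to 1678, 622, 2305 and 149.6 CPM in the members of NW, NK, HSW and HSK, and to 248, 280.4, 153 and 139 CPM in the unmixed ones.

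Lists of marker genes were read as a check of the label. In the members 18 endothelial genes outside the rule summed to between 15052 and 17968 CPM, against at most 408 in the non-endothelial cells. General capillary genes summed to 5629 to 7745 CPM in the members and 8610 to 12499 in the other endothelial cells, lower in the members in 4 of 4 libraries. The other endothelial cells, only 21 in NW, were not cleared of mixed cells. They held 3002, 2738, 900 and 562 CPM of fibroblast genes in NW, NK, HSW and HSK. Lymphatic genes summed to 4959, 2806, 2432 and 2594 CPM in them, and red cell genes reached 8909 in HSW. Comparisons with these cells below carry this limit. Genes of red cells stood at 44 CPM or less in the members and those of macrophages at 1399 to 2316 against at least 30067 in non-endothelial cells. Airway genes summed to 1223, 2511, 2541 and 3991 CPM in the members of NW, NK, HSW and HSK, and neutrophil genes to 691, 636, 491 and 1396. The lists of aerocytes and alveolar type 2 cells hold genes by which the rule chose or left out cells, so their sums are a description: 2583 to 2692 CPM in the members for aerocyte genes and 2234 to 4178 for alveolar type 2 genes. The part of these traces in the results was not tested.

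The members made up 39.2% of the endothelial cells in NW (95% Clopper-Pearson interval 28.0 to 51.2, 29 of 74 cells), 22.8% in NK (16.9 to 29.6, 41 of 180), 18.1% in HSW (14.1 to 22.6, 62 of 343) and 28.4% in HSK (21.4 to 36.2, 44 of 155). The NW share stood above that of HSW beyond counting error, whereas the intervals of NW, NK and HSK overlapped in part. Without the mixed cells the shares were 34.8%, 21.02%, 16.4% and 27.5%. As shares of all cells in the library they were 0.379%, 0.447%, 1.23% and 1.07%.

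The rule itself used the levels of the vessel genes, so these are given as a description. Vwf stood at 3312 CPM in NW and 3914 in NK under normoxia, against 1689 in HSW and 1323 in HSK. Slc6a2, which encodes a noradrenaline transporter and marks veins of the lung, stood at 614 CPM in NW and 718 in NK under normoxia, against 260.4 in HSW and 445 in HSK. Vcam1, an adhesion molecule for leukocytes, stood at 503 CPM in NW and 409.7 in NK under normoxia, against 385 in HSW and 213 in HSK. Each of these 3 genes was lower in both HySu libraries than in both normoxia libraries. Of the arterial genes, the connexin gene Gja5 stood at 62.9 CPM in NW and 67.5 in NK under normoxia, against 17.2 in HSW and 33.2 in HSK. The kinase gene Bmx stood at 96.7 CPM in NW and 130.1 in NK under normoxia, against 123 in HSW and 49.9 in HSK. The elastic fibre gene Fbln5 stood at 232 CPM in NW and 231 in NK under normoxia, against 374 in HSW and 213 in HSK. Members of the HySu libraries sat closer to the threshold: the median member held 31 and 26 vessel-gene UMIs in NW and NK, and 15 and 12 in HSW and HSK. Just inside the threshold, with 5 or 6 UMIs, lay 2, 4, 10 and 9 members, and just outside, with 3 or 4 UMIs, lay 4, 14, 14 and 8 other endothelial cells.

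Genes that the rule did not use separated the members from the other endothelial cells in each library. Of 3079 genes with at least 10 UMIs in the members of every library, 36 were at least 2-fold higher than in the other endothelial cells in 4 of 4 libraries. Of 2350 genes with that many UMIs in the other cells, 13 were at 0.5 of that level or less in 4 of 4. The gene with the steadiest excess was Cytl1, which encodes a secreted cytokine-like protein, at 837 CPM in NW and 598 in NK under normoxia, against 362 in HSW and 415 in HSK in the members and 0 to 10.5 CPM in the other cells. The smallest of its 4 ratios was 51.0 and the largest 180.0, with 0.5 UMI added to each count. Next came Tmem45a, the carboxypeptidase gene Cpe, the carbonic anhydrase relative Car8, the ectoenzyme gene Bst1 and Samd5, with lowest ratios of 17.8, 14.1, 9.46, 9.42 and 9.38. Others among the 20 were Selp, the P-selectin that captures leukocytes, the integrin gene Itgb4, the cholesterol hydroxylase gene Ch25h, the phospholipase gene Pla2g4a and the cyclooxygenase gene Ptgs2, with lowest ratios of 6.59, 4.09, 7.64, 4.25 and 3.93. The remaining named genes (Adgrg6, Amigo2, Plac8, Cdh13, Fam107a, Myof, Fstl1, Sncg and Sulf1) had lowest ratios from 3.33 to 8.03. In the opposite direction stood genes of alveolar epithelium and capillaries, among them Ager, Hopx and Cldn18 of type 1 cells and the apelin receptor gene Aplnr, none above 0.466 of the level in the other cells in any library.

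**Figure D1:**
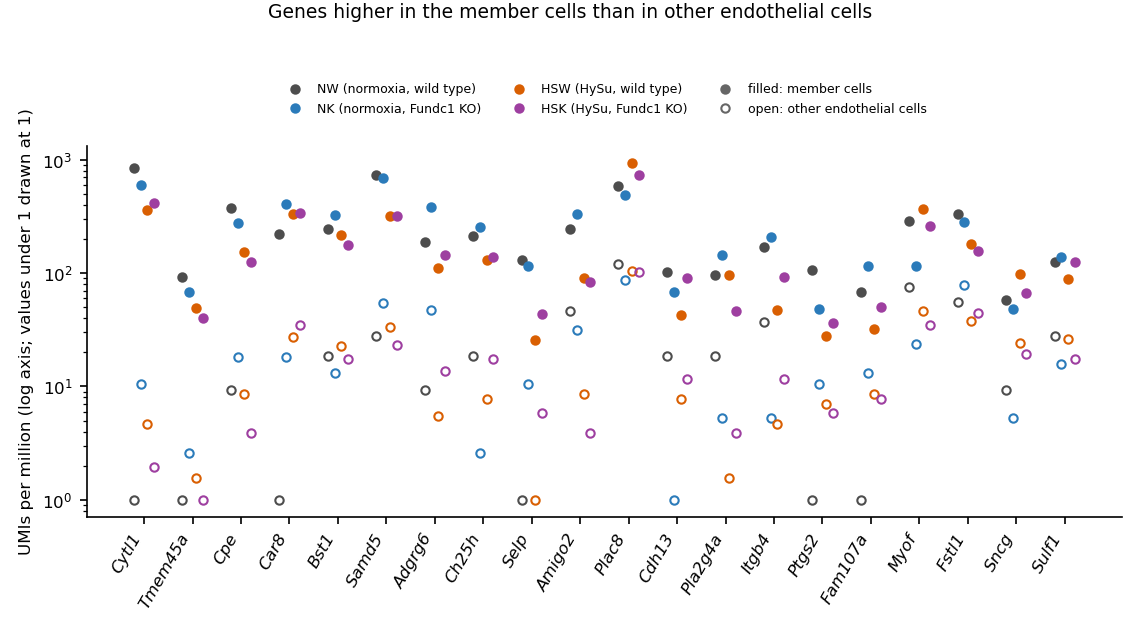
Level of the 20 genes with the largest lowest ratio between members (filled) and other endothelial cells (open), in CPM on a log axis, by library. For Cytl1 the members lie between 362 and 837 and the other cells at 10.5 or less; for Selp the members of HSW and HSK lie at 25.8 and 43.2, under those of NW and NK at 131 and 116.

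Members were then split by which genes of the rule they held more of, Gja5, Bmx and Fbln5 for arteries or Slc6a2 and Vcam1 for veins. Arterial-marked cells were 34.5% of the members in NW (interval 17.9 to 54.3, 10 cells), 29.3% in NK (16.1 to 45.5, 12 cells), 37.1% in HSW (25.2 to 50.3, 23 cells) and 29.5% in HSK (16.8 to 45.2, 13 cells). Venous-marked cells were 58.6%, 61.0%, 51.6% and 56.8%, and the rest were tied. All 4 lymphatic-marked cells counted as arterial-marked. In the unmixed members arterial-marked cells were 29.2%, 24.3%, 36.4% and 31.0%, and venous-marked cells 62.5%, 64.9%, 50.9% and 54.8%. The split uses genes of the rule, so these shares are a description of each library with counting error over cells only. The split is a range and not 2 clean types: 7, 15, 19 and 18 members lay within 2 UMIs of the cut.

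**Figure D2:**
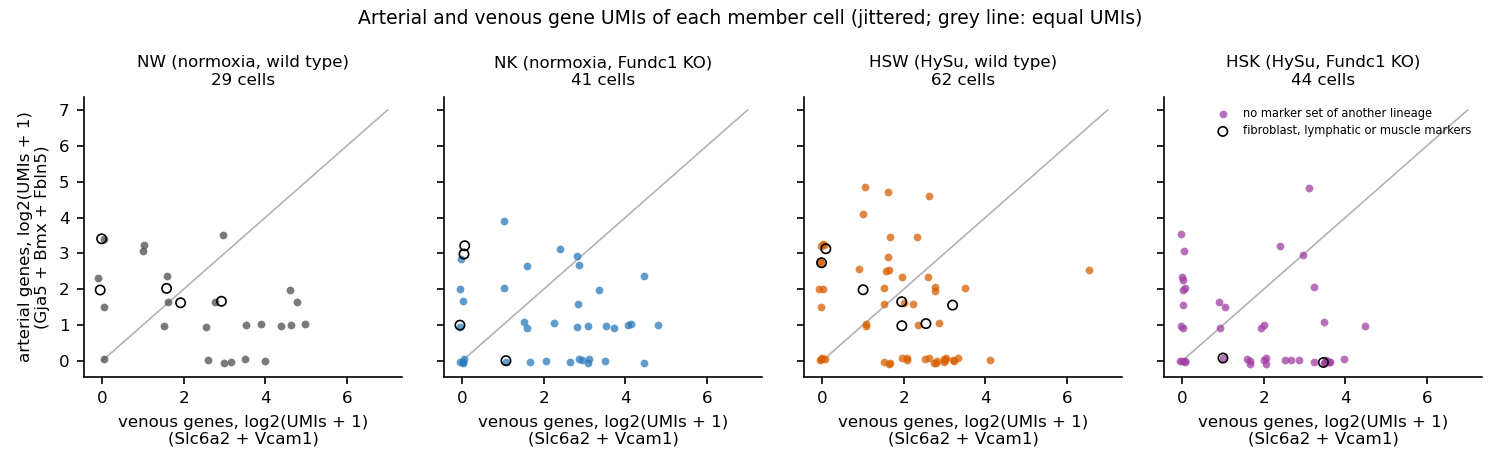
UMIs of the arterial genes of the rule (Gja5, Bmx and Fbln5) against those of the venous genes (Slc6a2 and Vcam1) in each member, as log2(UMIs + 1), for the 29 cells of NW, 41 of NK, 62 of HSW and 44 of HSK. Points above the grey line are arterial-marked; open circles are the 18 cells with markers of another lineage, and many cells near the origin hold few UMIs of either set.

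Genes outside the rule followed the split in the unmixed cells. Of 17 measured genes in the arterial list, 13 were higher in arterial-marked than in venous-marked cells in 4 of 4 libraries and 16 in at least 3. Cxcl12, a chemokine made by arterial endothelium, stood at 1643, 2999, 3538 and 2278 CPM in the arterial-marked cells of NW, NK, HSW and HSK and at 112, 212, 537 and 333 in the venous-marked cells. Mgp, an inhibitor of calcification, stood at 3286, 2449, 3085 and 3738 against 382, 375, 361 and 646 CPM, and Edn1 at 469, 801, 1503 and 1057 against 196, 122, 256 and 339. The Notch ligand gene Jag1 went the other way, lower in arterial-marked cells in 3 of 4 libraries. Of 13 measured venous genes, 7 were higher in venous-marked cells in 4 of 4 libraries and 11 in at least 3. The serine protease gene Prss23 stood at 2275, 3129, 1867 and 1233 CPM in venous-marked and 325, 22.9, 207 and 196 in arterial-marked cells, and Nr2f2 at 308, 318, 196 and 143 against 90.3, 0, 19.4 and 10.9. Lyve1 and Bmp6 were higher in the arterial-marked cells in 3 of 4 libraries.

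HySu against normoxia was compared within each genotype. The percentages given for all measured genes are the background against which counts in gene lists are to be read. A gene is called past 2-fold when its ratio was at least 2 or at most 0.5, its interval excluded 1 and it had at least 30 UMIs in the pair. In wild type, HSW against NW, 222 of 4163 measured genes were past 2-fold higher (5.33%) and 322 lower (7.73%). In the knockout, HSK against NK, 231 of 3292 were higher (7.02%) and 377 lower (11.5%). Scaling by TMM, edgeR's trimmed mean of ratios, moved all log2 ratios by 0.21 in wild type and 0.22 in the knockout, and gave 390 higher and 191 lower genes in wild type and 381 and 222 in the knockout. The balance of higher against lower genes therefore depends on the scaling. Of the genes named below, Ahr, Nr2f2 and Nos3 in wild type and Itgb4, Samd5, Cpe, Notch1, Bmpr2 and Uqcrc1 in the knockout were no longer past 2-fold lower with TMM, and Hey1 was past 2-fold higher in wild type.

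The 2 comparisons share no library. Of 3167 genes measured in both, 54 were past 2-fold higher in both, which is 34.2% of the 158 in wild type and 23.6% of the 229 in the knockout. Another 69 were lower in both, 34.2% of 202 and 20.2% of 342. Opposite directions were found for 6 genes. In the unmixed members 51 genes were higher and 52 lower in both, and of the 54 and 69 genes 41 and 37 were among them.

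**Figure D3:**
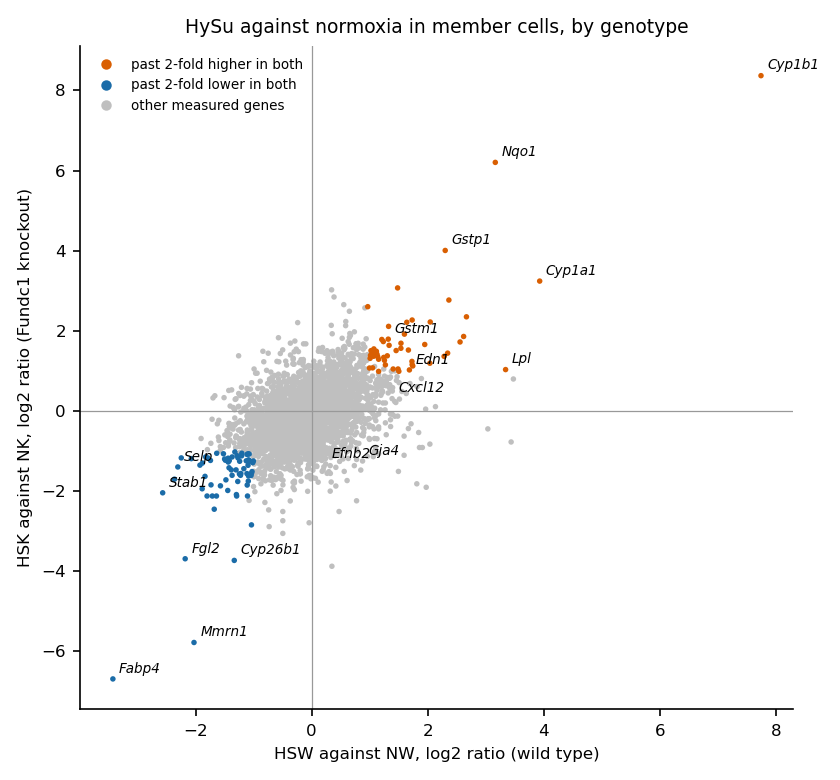
Log2 ratio of HySu against normoxia for the 3167 genes measured in both genotypes, wild type (HSW against NW) on the horizontal and knockout (HSK against NK) on the vertical axis, with 0.5 UMI added to each count. The 54 genes past 2-fold higher in both are orange and the 69 lower in both are blue; Cyp1b1, Nqo1, Gstp1 and Cyp1a1 lie farthest to the upper right and Fabp4 to the lower left. Mmrn1 rests on lymphatic cells.

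Genes of xenobiotic metabolism held the largest ratios among those higher in both genotypes. Cyp1b1 and Cyp1a1 encode cytochrome P450 enzymes that the aryl hydrocarbon receptor induces. Cyp1b1 had 2 UMIs in NW and 1 in NK under normoxia, against 1202 in HSW and 719 in HSK, a ratio of 267 (73.9 to 2211) in wild type and 496 (88.7 to 19609) in the knockout. The intervals are wide because the normoxia counts were near 0. Cyp1a1 stood at 421 CPM in NW and 704 in NK under normoxia, against 6442 in HSW and 6683 in HSK, ratios of 15.3 (12.4 to 19.2) and 9.5 (8.03 to 11.3). No single cell held more than 9.69% of the Cyp1a1 UMIs or 6.24% of the Cyp1b1 UMIs of a HySu library. Nqo1, a quinone reductase induced by the same receptor and by NRF2, had 3 UMIs in NW and 0 in NK under normoxia, against 70 in HSW and 53 in HSK; it was 10.4 (3.41 to 51.6) times as high in wild type. In the knockout the exact interval of its ratio began at 9.57. Ahrr, the repressor of the receptor and a target of it, had 0 UMIs in NW and 0 in NK under normoxia, against 21 in HSW and 17 in HSK. Those counts are under the minimum for a call. The receptor gene Ahr itself stood at 213 CPM in NW and 101 in NK under normoxia, against 94.7 in HSW and 133 in HSK, a ratio of 0.445 (0.286 to 0.692) in wild type and 1.31 (0.756 to 2.34) in the knockout. Of the 6 measured genes of the aryl hydrocarbon receptor list, 3 were past 2-fold higher and 1 lower in wild type, and 4 higher and 0 lower in the knockout, where Tiparp, a target gene that encodes a poly-ADP-ribose polymerase, joined at 3.17 (1.58 to 7.05). The list's median log2 ratio was 1.86 in wild type and 2.43 in the knockout, against -0.09 and -0.13 over all measured genes.

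The sequences around the starts of these genes are shown because the receptor binds a core of 5 bases, GCGTG. They run from 250 bases before to 50 after the annotated start (RefSeq, GRCm38.p6), 5′ to 3′ on the gene's strand, with GCGTG or its complement CACGC in capitals.
Cyp1b1 (chr17:79715012-79715311, minus strand): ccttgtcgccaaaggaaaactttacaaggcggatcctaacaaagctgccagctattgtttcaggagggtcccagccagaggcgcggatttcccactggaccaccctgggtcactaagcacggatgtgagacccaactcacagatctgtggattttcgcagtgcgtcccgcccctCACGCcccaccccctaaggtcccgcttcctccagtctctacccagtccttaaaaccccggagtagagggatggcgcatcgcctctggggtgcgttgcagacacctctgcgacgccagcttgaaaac
Cyp1a1 (chr9:57697363-57697662, plus strand): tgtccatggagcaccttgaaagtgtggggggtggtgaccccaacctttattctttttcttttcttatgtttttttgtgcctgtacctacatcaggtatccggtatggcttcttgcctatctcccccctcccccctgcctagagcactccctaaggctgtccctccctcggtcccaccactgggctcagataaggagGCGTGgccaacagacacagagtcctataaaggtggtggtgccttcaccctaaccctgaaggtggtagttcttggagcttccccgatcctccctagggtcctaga
Nqo1 (chr8:107403156-107403455, minus strand): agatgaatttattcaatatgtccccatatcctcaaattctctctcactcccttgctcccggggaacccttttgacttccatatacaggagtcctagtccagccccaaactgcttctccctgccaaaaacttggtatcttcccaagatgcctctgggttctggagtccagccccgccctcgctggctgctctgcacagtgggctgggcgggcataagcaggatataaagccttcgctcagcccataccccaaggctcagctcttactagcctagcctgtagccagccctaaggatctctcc

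The core was found once in the windows of Cyp1b1 and Cyp1a1 and not in that of Nqo1, on either strand. It was also found once each in the windows of Gstp1 and Tiparp and 3 times in that of Ahrr. The share of all 32851 promoter windows with at least 1 copy is 32.4%, so a match is common and describes the sequence only.

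Cyp1a1 and the phase 2 gene Gstp1 differed by vessel type. In the unmixed cells Cyp1a1 stood at 550.0, 904, 8490 and 7129 CPM in venous-marked cells of NW, NK, HSW and HSK and at 162, 275, 5055 and 5668 in arterial-marked cells, higher in the venous-marked cells in 4 of 4 libraries. Gstp1, a glutathione S-transferase, stood at 217, 91.6, 1387 and 2136 CPM in arterial-marked and 55.9, 57.0, 266 and 359 in venous-marked cells, higher in the arterial-marked ones in 4 of 4. Cyp1b1 was close between them under HySu, at 2955 and 2420 CPM in arterial-marked against 2845 and 2374 in venous-marked cells of HSW and HSK. These levels come from 7 to 20 arterial-marked and 15 to 28 venous-marked cells per library, so a few cells can set them.

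Several glutathione and detoxification genes stood higher with HySu in both genotypes. Gstp1 stood at 126 CPM in NW and 57.8 in NK under normoxia, against 630.5 in HSW and 967 in HSK, with ratios of 5.01 (3.35 to 7.81) in wild type and 16.7 (9.43 to 32.7) in the knockout; its near-identical copy Gstp-ps, which may share reads with it, had ratios of 5.93 (1.89 to 30.0) and 7.58 (2.76 to 29.1). Gstm1 stood at 585 CPM in NW and 516 in NK under normoxia, against 1465 in HSW and 1795 in HSK, with 2.5 (2.06 to 3.06) and 3.48 (2.82 to 4.32). Gstm2 had 2.13 (1.45 to 3.22) and 2.96 (1.98 to 4.57), and the epoxide hydrolase gene Ephx1 had 3.22 (2.18 to 4.93) and 2.9 (1.98 to 4.38). Of the NRF2 and glutathione list, 3 of 18 measured genes were past 2-fold higher and 0 lower in wild type, with a median log2 ratio of 0.53. In the knockout 6 of 16 were higher and 1 lower, with a median of 0.89; the lower one, Gpx3, rests on mixed cells. With TMM 10 of 16 were higher in the knockout, and in the unmixed members 8 of 15 were higher and 0 lower. Gclm, of glutathione synthesis, had ratios of 1.48 (0.82 to 2.84) in wild type and 2.34 (1.3 to 4.49) in the knockout, and Txnrd1, thioredoxin reductase, 0.742 (0.4 to 1.41) and 2.44 (1.23 to 5.29). Both passed 2-fold in the knockout and not in wild type, a difference between the genotypes that was not tested.

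Mitochondrially encoded genes of the respiratory chain were higher as well. The cytochrome b gene mt-Cytb of complex III stood at 2229 CPM in NW and 1484 in NK under normoxia, against 5250 in HSW and 4942 in HSK, ratios of 2.36 (2.13 to 2.61) and 3.33 (2.94 to 3.78). In wild type 3 of 7 measured genes passed 2-fold (1 of 6 in the unmixed members and 5 of 7 with TMM), and in the knockout 6 of 6. All mitochondrially encoded genes together took 1.67%, 1.34%, 2.62% and 2.44% of the members' UMIs in NW, NK, HSW and HSK. The share moved in the same order in the non-endothelial cells, at 1.82%, 1.44%, 2.46% and 2.17%. Nuclear-encoded subunits passed 2-fold higher in 1 of 71 genes in wild type (Atp5g1) and in 8 of 70 in the knockout, where 1 (Uqcrc1) was lower. The unmixed members gave 3 of 71 in wild type and 9 of 70 in the knockout, TMM gave 6 and 16, and neither left a lower one.

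Genes linked to p53 and cell death formed another group. Bax, which permeabilises the outer mitochondrial membrane in apoptosis, stood at 67.7 CPM in NW and 116 in NK under normoxia, against 340.0 in HSW and 302 in HSK, with ratios of 5.02 (2.91 to 9.4) in wild type and 2.61 (1.65 to 4.29) in the knockout. Cdkn1a, the cell cycle inhibitor p21, stood at 164 CPM in NW and 896 in NK under normoxia, against 649.9 in HSW and 927 in HSK: it was 3.95 (2.77 to 5.81) times as high in HSW as in NW and 1.03 (0.856 to 1.25) in HSK against NK, and NK held a level like that of HSK. Fas and Phlda3, both p53 targets, passed 2-fold in wild type at 2.59 (1.64 to 4.28) and 2.39 (1.51 to 3.95). Of this list 4 of 8 measured genes (5 of 8 in the unmixed members) were higher in wild type and none lower, where 5.33% of all genes were higher. In the knockout 3 of 8 were higher and 2 lower, where 7.02% and 11.5% of all genes were. The lower ones were the survival genes Bcl2l1 and Mcl1, at 0.391 (0.202 to 0.732) and 0.368 (0.244 to 0.547).

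Of the vasoactive list, 1 of 17 measured genes was past 2-fold higher and 3 lower in wild type, and 2 of 15 higher and 3 lower in the knockout, where the unmixed members gave 0 higher and 4 lower. Of the chemokine list, 3 of 8 were higher and 1 lower in wild type (2 and 1 of 6 in the unmixed members), and 0 of 6 higher and 1 lower in the knockout. Edn1, the precursor of the vasoconstrictor endothelin 1, stood at 237 CPM in NW and 304 in NK under normoxia, against 768 in HSW and 621 in HSK, with ratios of 3.24 (2.4 to 4.46) and 2.05 (1.53 to 2.77); in the unmixed members the knockout ratio was 1.89 (1.41 to 2.58) and no longer passed 2-fold. Nos3, the endothelial nitric oxide synthase, stood at 149.9 CPM in NW and 106 in NK under normoxia, against 68.9 in HSW and 59.8 in HSK, with 0.459 (0.271 to 0.778) in wild type and 0.564 (0.285 to 1.1) in the knockout, where the interval reached above 1; in the unmixed members the knockout ratio was 0.492 (0.24 to 0.989) and passed. Ptgs2 was lower in wild type at 0.263 (0.122 to 0.546). Cxcl12 stood at 624 CPM in NW and 887 in NK under normoxia, against 1635 in HSW and 1100 in HSK, with 2.62 (2.17 to 3.18) in wild type and 1.24 (1.03 to 1.49) in the knockout. Pdgfa, a growth factor for smooth muscle, had 15 UMIs in NW and 3 in NK under normoxia, against 45 in HSW and 36 in HSK; its ratio was 8.27 (2.61 to 42.0) in the knockout and 1.33 (0.73 to 2.58) in wild type, where in the unmixed members it was 2.53 (1.12 to 6.7). From other lists, Lpl, lipoprotein lipase, stood at 19.3 CPM in NW and 159 in NK under normoxia, against 219 in HSW and 329 in HSK, with 11.3 (4.3 to 42.4) and 2.07 (1.38 to 3.17). The BMP target Id1 was 2.38 (1.82 to 3.17) times as high in wild type and 1.64 (1.31 to 2.07) in the knockout.

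**Figure D4:**
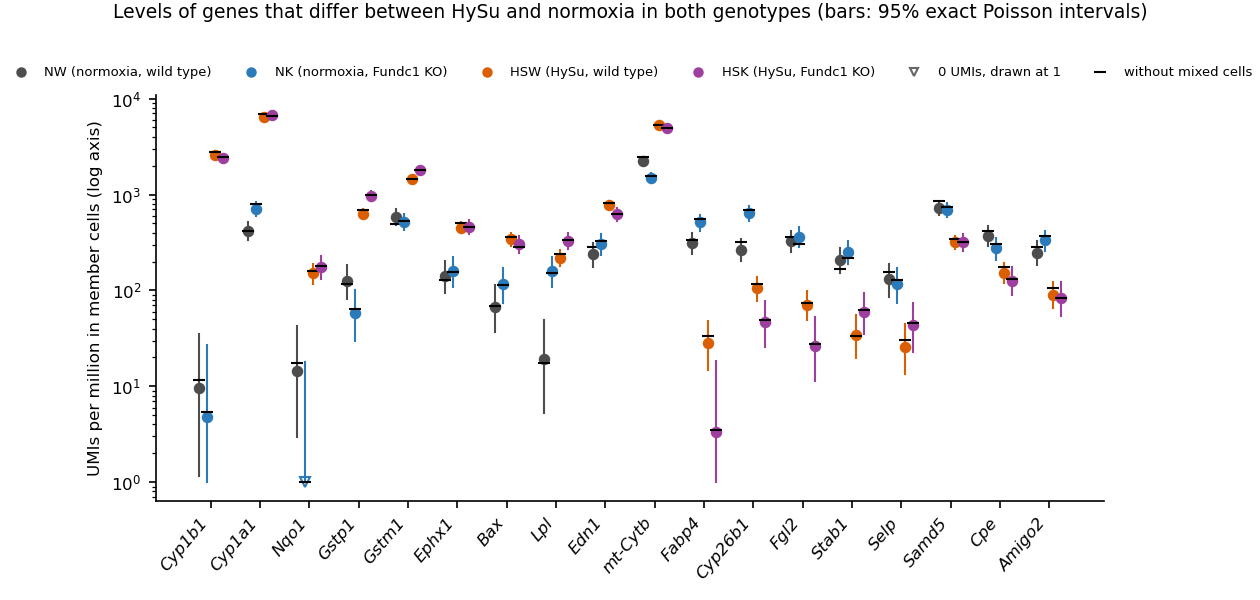
Level in CPM of 18 genes in the members of each library on a log axis, with 95% exact Poisson intervals and, as black dashes, the level without mixed cells. For Cyp1b1, Cyp1a1, Nqo1, Gstp1, Gstm1, Ephx1 and Bax both HySu libraries lie above both normoxia libraries; for Fabp4, Cyp26b1, Fgl2, Stab1, Selp, Samd5, Cpe and Amigo2 both lie below.

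Other genes stood far lower after HySu in both genotypes. Fabp4, a fatty acid carrier, had 64 UMIs in NW and 106 in NK under normoxia, against 13 in HSW and 1 in HSK, with ratios of 0.0904 (0.0457 to 0.166) in wild type and 0.00651 (0.000163 to 0.037) in the knockout. A single cell held 73.6% of the Fabp4 UMIs of NK and another 76.9% of those of HSW; leaving out the leading cell of each library gave a ratio of 0.0310 in wild type and of 0 in the knockout, with an upper bound of 0.0971. Cyp26b1, which breaks down retinoic acid, stood at 266 CPM in NW and 636 in NK under normoxia, against 105 in HSW and 46.5 in HSK, ratios of 0.396 (0.264 to 0.594) and 0.0731 (0.0389 to 0.127). Fgl2, which encodes a prothrombinase and immune regulator, stood at 324 CPM in NW and 361 in NK under normoxia, against 71.0 in HSW and 26.6 in HSK, with 0.219 (0.14 to 0.337) and 0.0736 (0.0306 to 0.153). The scavenger receptor gene Stab1 stood at 208 CPM in NW and 251 in NK under normoxia, against 34.4 in HSW and 59.8 in HSK, with 0.166 (0.0871 to 0.3) and 0.239 (0.131 to 0.415). Mmrn1 also stood at the low end, with 53 UMIs in NW and 94 in NK under normoxia, against 29 in HSW and 2 in HSK, but its UMIs came from the lymphatic cells among the members, which number 0 in HSK.

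Among genes that set the members apart from the other endothelial cells, lower ratios outnumbered higher ones after HySu. Of the 36 genes at least 2-fold above the other endothelial cells in every library, 35 were measured in wild type, where 10 were past 2-fold lower and 1 higher, and 30 in the knockout, where 11 were lower and 1 higher. Their median log2 ratios were -0.63 and -0.40, against -0.09 and -0.13 over all measured genes. With TMM scaling 9 and 7 were lower and 3 and 3 higher, and in the unmixed members 12 and 12 were lower and 0 and 0 higher. When members needed 8 vessel-gene UMIs in place of 5, 10 and 10 were lower, and when these genes had to hold 0.08% of the UMIs, 10 and 8 were lower and 2 and 2 higher. With each cell thinned to 3000 UMIs, 18 and 21 genes were measured, of which 3 and 3 were lower and 1 and 1 higher. Samd5 stood at 730.2 CPM in NW and 694 in NK under normoxia, against 316 in HSW and 319 in HSK, with ratios of 0.433 (0.343 to 0.547) and 0.46 (0.351 to 0.599). Cpe had 0.41 (0.293 to 0.574) and 0.46 (0.297 to 0.705), Selp 0.198 (0.0913 to 0.404) and 0.373 (0.175 to 0.763), Itgb4 0.28 (0.156 to 0.49) and 0.449 (0.269 to 0.74), and Amigo2 0.366 (0.238 to 0.562) and 0.25 (0.151 to 0.4). Cytl1 was lower in wild type at 0.432 (0.347 to 0.537), and its knockout ratio was 0.695 (0.538 to 0.898). The general capillary genes summed to 6494 and 7745 CPM in the members of NW and NK and 5629 and 5710 in HSW and HSK. In the other endothelial cells they summed to 10627 and 12499, and to 9701 and 8610. Members with 5 or 6 vessel-gene UMIs held medians of 35.5, 68, 48.5 and 53 general capillary UMIs in NW, NK, HSW and HSK. Those with at least 15 held 39, 37, 31 and 21. The part of capillary cells near the threshold in these ratios was not tested.

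Compared with the capillary cells of the same libraries, that is aerocytes and the other endothelial cells together, most genes did not differ in their HySu ratio beyond both limits. For HSW against NW, 190 of 4126 genes had a ratio in members at least 2 times that in capillary cells with an interval that excluded 1, and 210 at most 0.5 times. In wild type the ratio of Cyp1a1 in the members was 1.84 (1.42 to 2.41) times that in the capillary cells, that of Gstp1 0.854 (0.44 to 1.63) times and that of mt-Cytb 1.01 (0.884 to 1.16) times. In the knockout Cyp1a1 was again above, at 1.81 (1.5 to 2.19) times. Bax and Lpl were also above in wild type, at 2.09 (1.09 to 4.25) and 3.54 (1.19 to 14.2) times. Cyp26b1 was lower in both kinds of cell in wild type, with the ratio in members 3.31 (1.81 to 6.04) times that in capillary cells. Fabp4 parted them in the knockout: the capillary cells had 4 UMIs in NK and 155 in HSK, whereas the members had 106 and 1. Cyp1a1 started lower in the members, at 421 and 704 CPM in NW and NK. Aerocytes held 985 and 1645 there, and the other endothelial cells 494 and 975. In HSW and HSK the members' 6442 and 6683 CPM lay between the aerocytes (8238 and 7642) and the other cells (5786 and 5833). Cyp1b1 rose in the other endothelial cells as well, from 9.32 CPM in NW to 2007 in HSW and from 5.23 in NK to 1656 in HSK.

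Several Notch and guidance genes were lower in the knockout after HySu. Of 7 measured Notch genes, 4 were past 2-fold lower in HSK against NK and 0 higher, with a median log2 ratio of -1.20, whereas in wild type 1 of 10 (Dll1) was lower, with a median of -0.23. Efnb2, an ephrin of arteries, stood at 111 CPM in NW and 284 in NK under normoxia, against 133 in HSW and 113 in HSK, with ratios of 0.397 (0.253 to 0.616) in the knockout and 1.2 (0.733 to 2.03) in wild type. Hey1 stood at 58.0 CPM in NW and 159 in NK under normoxia, against 108 in HSW and 56.5 in HSK, with 0.355 (0.186 to 0.656) and 1.85 (0.974 to 3.83); in the unmixed members its wild type ratio was 2.04 (1.01 to 4.53) and passed 2-fold higher. The receptor gene Notch1 had 0.434 (0.305 to 0.613) and 0.801 (0.561 to 1.16), and the ligand gene Dll1 had 0.407 (0.189 to 0.845) and 0.368 (0.189 to 0.706). Of 16 axon guidance genes, which also steer vessels, 8 were lower in the knockout and 0 higher (median -0.92), and 1 lower in wild type (median -0.34). Among them the semaphorin gene Sema3g stood at 121 CPM in NW and 390.4 in NK under normoxia, against 187 in HSW and 116 in HSK, with 0.298 (0.194 to 0.448) and 1.55 (0.983 to 2.52). With TMM scaling 3 of 7 Notch genes and 5 of 16 guidance genes were still past 2-fold lower in the knockout. In the unmixed members 4 of 7 and 7 of 16 were. The lists share genes: Efnb2 counts in the Notch, guidance and arterial lists, and Ephb4 in the guidance and venous lists. Of 14 measured genes of the arterial list, 5 were past 2-fold lower and 1 higher in the knockout (5 and 0 in the unmixed members). The arterial list's median log2 ratio was 0.06, against -0.13 over all measured genes. In wild type 3 of 17 were lower and 2 higher, with a median of 0.24 against -0.09. For Efnb2, Hey1 and Sema3g the NK library is the highest of the 4, so the knockout ratio and the comparison of the genotypes in normoxia rest on the same library.

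Several venous genes were lower in HSK than in NK too. Of 12 measured venous genes, 5 were past 2-fold lower (Selp, Ephb4, Nr2f2, Prss23 and Amigo2) and 1 higher (Ptgs1) in the knockout, and 3 lower in wild type. In the unmixed members 6 were lower and 0 higher in the knockout, where Ptgs1 no longer passed, and 2 lower in wild type. Prss23 stood at 1340 CPM in NW and 2034 in NK under normoxia, against 945 in HSW and 761 in HSK, with 0.374 (0.317 to 0.441) in the knockout and 0.705 (0.605 to 0.823) in wild type, and Nr2f2 had 0.388 (0.233 to 0.634) and 0.468 (0.321 to 0.682). In the unmixed members the wild type ratio of Nr2f2 was 0.501 (0.317 to 0.797) and no longer passed. Of the clotting genes, the plasminogen activator gene Plat had a ratio of 0.327 (0.175 to 0.587) in the knockout and the thrombospondin gene Thbs1 of 0.2 (0.092 to 0.398). The list counts 4 lower of 9, but of these Vwf is a gene of the rule and Mmrn1 rests on lymphatic cells. Of the list of BMP and pulmonary hypertension genes, 2 of 17 were lower in the knockout and 0 higher, close to the 11.5% of all genes that were lower. With TMM 1 was lower and 3 higher, so the direction of this count depends on the scaling. Bmpr2 stood at 899 CPM in NW and 1311 in NK under normoxia, against 803 in HSW and 631 in HSK, with 0.482 (0.398 to 0.582) in the knockout and 0.892 (0.746 to 1.07) in wild type. Atp13a3, a polyamine transporter gene linked to heritable disease, had 18 UMIs in NW and 42 in NK under normoxia, against 10 in HSW and 6 in HSK, with 0.0985 (0.0342 to 0.233) and 0.247 (0.102 to 0.565). For Prss23, Bmpr2 and Atp13a3 too, NK is the highest library, so their knockout ratios rest in part on the level in NK.

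Knockout against wild type in normoxia, NK against NW, had 136 of 2964 measured genes past 2-fold higher (4.59%) and 124 lower (4.18%). In the unmixed members 125 were higher and 79 lower. The lower genes with the smallest ratios were mostly genes of fibroblasts, such as Ogn, Pcolce2 and Col1a2, and rest on the 4 fibroblast-marked cells of NW. Igfbp3 had 31 UMIs in NW and 0 in NK under normoxia, against 4 in HSW and 0 in HSK, and 1 cell held 45.2% of its NW UMIs. Prep had 30 UMIs in NW and 0 in NK under normoxia, against 5 in HSW and 4 in HSK, and 1 cell held 33.3% of its NW UMIs. Without the mixed cells Igfbp3 kept 1 UMI in NW, whereas Prep kept 20 against 0, with an upper bound of 0.189 for the ratio, under the minimum count for a call. Of the 12 genes with the smallest ratios, those measured and still lower without the mixed cells included Nsmce1 and Zfand3, with ratios of 0.16 (0.0551 to 0.385) and 0.22 (0.088 to 0.484).

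Among the higher genes stood targets of glucocorticoids and of stress. Ddit4, an inhibitor of mTOR signalling, had 4 UMIs in NW and 49 in NK under normoxia, against 41 in HSW and 40 in HSK, a ratio of 12.2 (4.48 to 46.6). The clock gene Per1 had 5 UMIs in NW and 31 in NK under normoxia, against 14 in HSW and 7 in HSK, a ratio of 6.18 (2.38 to 20.4). Tsc22d3, a glucocorticoid-induced gene, stood at 111 CPM in NW and 269.9 in NK under normoxia, against 83.9 in HSW and 156 in HSK, a ratio of 2.43 (1.47 to 4.13). Of the 10 measured genes of the glucocorticoid and clock list, 4 were past 2-fold higher and 0 lower (3 and 0 of 9 in the unmixed members, where Mt1 was no longer measured), with a median log2 ratio of 0.59 against 0.03 over all genes. Cdkn1a was 5.45 (3.77 to 8.11) times as high in NK, and the survival gene Bcl2l1 had 2 UMIs in NW and 30 in NK under normoxia, against 26 in HSW and 17 in HSK, a ratio of 15.0 (3.79 to 129); without the mixed cells it was 25.2 (4.16 to 1034), on fewer UMIs than the minimum for a call. The flow-induced factor gene Klf4 stood at 580.3 CPM in NW and 1287 in NK under normoxia, against 781 in HSW and 897 in HSK, a ratio of 2.22 (1.78 to 2.77). Lrrc8a, a subunit of volume-regulated channels, the chaperone gene Hsph1, Midn and Rgl1 were higher by 4.21 to 6.18 times. Fxyd6 and Gpm6a were higher through lymphatic cells. Over the capillary cells of the same libraries the ratio of Ddit4 was 4.72 (1.22 to 22.2) times and that of Cdkn1a 2.77 (1.79 to 4.37) times, whereas for Tsc22d3 it was 1.06 (0.557 to 2.06).

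Several arterial genes differed between NK and NW. Of 16 measured genes of the arterial list 4 were past 2-fold higher and 3 lower: Sema3g at 3.23 (2.04 to 5.28), Hey1 at 2.74 (1.38 to 5.83), Efnb2 at 2.56 (1.56 to 4.34) and the connexin gene Gja4 at 2.11 (1.39 to 3.25) were higher, and Clu, Eln and Mgp lower. In the unmixed members Eln and Mgp no longer passed, at 0.59 (0.389 to 0.885) and 0.639 (0.516 to 0.788). Arterial-marked cells were 24.3% of the unmixed members in NK, 9 of 37, and 29.2% in NW, 7 of 24. The part of the mix of cells in these ratios was not tested. Within the arterial-marked cells Gja4 stood at 253 CPM in NW and 1076 in NK, Efnb2 at 181 and 939, and Sema3g at 235 and 1236, from 7 and 9 cells. Cyp26b1 was 2.39 (1.73 to 3.34) times as high in NK, and of its arterial-marked cells' levels NK had 1923 CPM and NW 379.

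**Figure D5:**
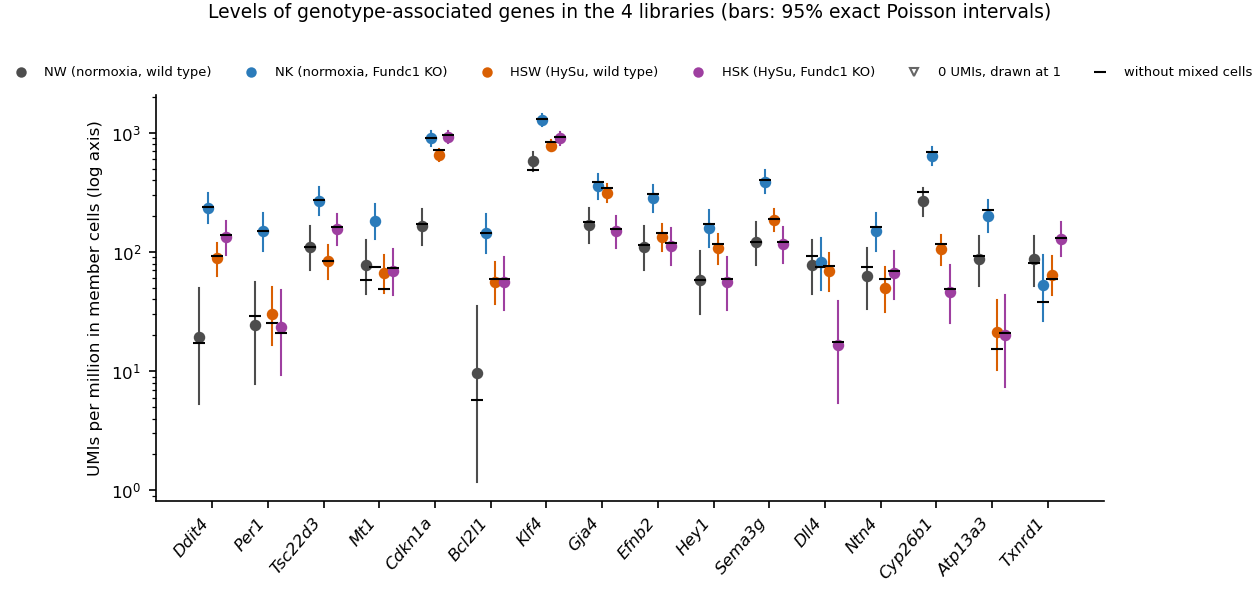
Level in CPM of 16 genes in the members of each library on a log axis, with 95% exact Poisson intervals and, as black dashes, the level without mixed cells. For Ddit4, Per1, Tsc22d3, Bcl2l1, Klf4, Efnb2, Hey1, Sema3g and Cyp26b1 the NK library is the highest of the 4; for Gja4 NK and HSW stand above NW and HSK.

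Knockout against wild type after HySu, HSK against HSW, had the fewest genes past 2-fold, 65 of 4394 higher (1.48%) and 168 lower (3.82%), and 62 and 107 in the unmixed members. The 12 smallest ratios were all of genes held by fibroblast-marked cells, 6 in HSW and 0 in HSK. Inmt, a methyltransferase gene that alveolar fibroblasts express, had 130 UMIs in NW and 45 in NK under normoxia, against 373 in HSW and 4 in HSK, of which the unmixed members held 3 in HSW and 4 in HSK. The largest ratio, that of the smooth muscle actin gene Acta2 at 12.4 (4.38 to 48.1), came from the muscle-marked cells and was 0.681 (0.0616 to 4.75) without them. Among the others, the endosomal gene Nsg1 had 20 UMIs in NW and 25 in NK under normoxia, against 26 in HSW and 46 in HSK, a ratio of 2.73 (1.65 to 4.6). Txnrd1 was 2.01 (1.22 to 3.35) times as high, and just under 2-fold with TMM. The other named higher genes (Gapvd1, Manbal, Phf21a, Cdkn2d, Ubqln2, Fam208b, Casp8ap2, Cdk5 and Impad1) had ratios from 2.43 to 2.76 on 19 to 25 UMIs in HSK.

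Some arterial genes stood lower in HSK than in HSW. Of 18 measured genes of the arterial list 3 were past 2-fold lower and 0 higher, where 3.82% of all genes were lower and 1.48% higher, with a median log2 ratio of -0.53 against -0.01 over all genes. They were the Notch ligand gene Dll4 at 0.241 (0.0734 to 0.624), Gja4 at 0.476 (0.333 to 0.669) and the matrix gene Fbln2, and the same 3 genes were lower in the unmixed members. Sparcl1, a matricellular protein gene, had 93 UMIs in NW and 53 in NK under normoxia, against 126 in HSW and 10 in HSK, a ratio of 0.123 (0.0574 to 0.233), which was 0.22 (0.0667 to 0.57) in the unmixed members, and Cyp26b1 had 0.441 (0.225 to 0.812). Cyp1a1, Cyp1b1 and Gstp1, past 2-fold higher with HySu in both genotypes, had ratios of 1.04 (0.98 to 1.1), 0.924 (0.841 to 1.01) and 1.53 (1.3 to 1.81) between the knockout and wild type. The pairs NK against NW and HSK against HSW share no library. Of 2847 genes measured in both, 5 were higher in both, of 120 in normoxia and 25 after HySu. Another 23 were lower in both, of 109 and 78. Opposite directions were found for 6 genes, higher in normoxia and lower after HySu. In the unmixed members 3 genes were higher in both, 3 lower and 6 opposite. Of the 5 and 23 genes, 0 and 3 were among them.

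The ratio of the HySu ratios, knockout over wild type, could be computed for 3694 genes. It was at least 2 with an interval that excluded 1 for 134 and at most 0.5 for 214. For Cyp1a1 it was 0.62 (0.467 to 0.82), for Gstp1 3.33 (1.59 to 7.39), for mt-Cytb 1.41 (1.2 to 1.66), for Cdkn1a 0.262 (0.17 to 0.395), for Sema3g 0.192 (0.101 to 0.363), for Cyp26b1 0.184 (0.0874 to 0.376) and for Gja4 0.226 (0.129 to 0.393).

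Other lists held few genes past 2-fold. None of 5 to 7 measured genes of mitochondrial fission and fusion passed in any pair. Of the mitophagy list 2 of 16 were higher in HSW against NW, among them Bnip3l at 2.54 (1.28 to 5.57), which was also higher in NK against NW at 2.59 (1.21 to 6.02). Interferon genes passed 2-fold in 0 of 22 higher and 1 lower in wild type with HySu, and in 1 higher and 3 lower of 18 in the knockout. With TMM these were 1 higher and 1 lower in wild type, and 3 higher and 2 lower in the knockout. Of MHC class II, 2 of 6 were higher in HSK against NK, among them H2-Eb1 at 2.25 (1.49 to 3.48). At least 10 UMIs of 10 cell cycle genes were found in 0, 0, 2 and 2 members of NW, NK, HSW and HSK. Mki67, a marker of dividing cells, had 0 UMIs in NW and 0 in NK under normoxia, against 35 in HSW and 26 in HSK. A single HSW cell held 23 of the 35 and a single HSK cell 25 of the 26.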

How the data were processed

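Single-cell RNA was captured in microwells (Singleron GEXSCOPE) from dissociated lungs, 1 library per group. The authors deposited raw UMI counts per gene and cell; cutadapt 1.17, STAR 2.6.1a, featureCounts 2.0.1, Scanpy and the GRCm38/mm10 build are named in the submitters' processing notes. Doublets were not called here; cells with markers of another lineage were left out as an alternative chosen after seeing the data.

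Counts were summed over members per library and scaled to 1000000 (CPM). Ratios carry exact conditional binomial 95% intervals. The calculation was run on simulated Poisson counts, for which such an interval holds by construction, so the run checks the calculation only. Variation between cells was not simulated. The ratio of 2 ratios was computed from 60 UMIs upward, list medians with 0.5 UMI added, and a count of 0 was bounded at 3 UMIs. edgeR 4.0.16 gave TMM factors only; no count model was fitted, as no group has a second library. Python 3.11.15, NumPy 2.4.6, SciPy 1.17.1 and pandas 2.3.3 were used.

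Named genes were drawn from the 12 largest and 12 smallest ratios per pair (30 or more UMIs in the pair, 50 CPM or more in 1 of its libraries, an interval without 1, and the higher level not under that of the non-endothelial cells), the 20 genes highest over the other endothelial cells, the genes of the rule, and up to 6 members per list plus its central members. Mitochondrial, ribosomal, haemoglobin and unnamed genes were left out of the ranking. The members, lists and rules were chosen with earlier results of these data known. Alternatives were other thresholds for members, thinning each cell to 3000 UMIs, TMM, other minimum counts, means of per-cell CPM, and leaving out single cells. Some genes that this rule names are not reported here.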

Additional observations from a re-analysis of the deposited data

Results flagged for a closer look

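For 11 genes the ratio passed 2-fold in opposite directions in the 2 genotypes or under the 2 treatments. The value for each is the ratio of the HySu ratios, knockout over wild type, with its counting interval; with 1 library per group the difference was not tested. Higher with HySu in wild type and lower in the knockout were Git1, at 0.226 (0.0941 to 0.529), Gm23935, at 0.0633 (0.0209 to 0.187), Lmcd1, at 0.138 (0.03 to 0.531), Ly6c2, at 0.0708 (0.0153 to 0.283), and Maged2, at 0.111 (0.0239 to 0.435). Casp8ap2 went the other way, at 6.61 (1.88 to 24.9). Higher in the knockout in normoxia and lower in the knockout after HySu were Acsl4, at 0.114 (0.0289 to 0.429), Cnn2, at 0.193 (0.0835 to 0.442), Cyp26b1, at 0.184 (0.0874 to 0.376), Gja4, at 0.226 (0.129 to 0.393), and Plscr4, at 0.224 (0.0845 to 0.585). Gm23935 met both conditions. Lmcd1 rested on 4 UMIs in NW and 21 in NK under normoxia, against 30 in HSW and 14 in HSK and Maged2 on 4 UMIs in NW and 24 in NK under normoxia, against 28 in HSW and 12 in HSK, so that the NW count sets their wide intervals. For Gja4 and Cyp26b1 the direction in each of these pairs was the same in the unmixed members. Ly6c2, a monocyte marker, was not called past 2-fold higher with HySu in the unmixed members of wild type.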

How the results depend on the processing

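Each group is 1 library, so mice, captures and conditions cannot be told apart, and depth limits the genes that can be read to those with at least 30 UMIs in a pair. Of 918 values of named genes under an alternative, 871 kept their direction and stayed within the interval of the reported ratio. Another 40 lay outside it in the same direction and 7 reversed. All 28 values of the arterial-marked share stayed within their intervals. Leaving out cells with at least 1% of UMIs in haemoglobin genes removed 0 members. Its 96 values of named genes and its arterial-marked shares therefore could not change. Acta2 in HSK against HSW reversed to 0.192 with at least 8 vessel-gene UMIs and to 0.681 without the mixed cells, and there Inmt, Mfap4 and Gpx3 reversed to 1.82, 1.59 and 1.36. With cells thinned to 3000 UMIs Pcolce2 in NK against NW reversed to 2.38 and Thy1 in HSK against NK to 2.55; the cause was not tested. The member share of HSW was 13.99% with at least 8 vessel-gene UMIs, and thinned it was 11.95% in HSW and 18.71% in HSK. Thinning removes counts, and left 75 higher and 61 lower genes in HSW against NW, 40 and 38 in NK against NW, 25 and 30 in HSK against HSW, and 126 and 153 in HSK against NK. In the same order, no minimum count gave 337 and 745, 367 and 368, 251 and 359, and 417 and 904, and at least 100 UMIs gave 55 and 28, 12 and 10, 5 and 15, and 76 and 55. TMM gave 390 and 191 in HSW against NW and 381 and 222 in HSK against NK. Without the mixed cells 79 genes were lower in NK against NW and 107 in HSK against HSW. Leaving out the cell with most UMIs of each gene, chosen after seeing the data, gave 362 and 208 in HSW against NW; it removes a larger share of the smaller library. No paired analysis was possible because each group holds 1 library, so the groups compared share only 1 replicate number.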
